A study of Mus musculus with 24 samples.

Results

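Unfused Omomyc was compared with PBS after 6 h in the claudin-low mouse mammary tumour line T11, which expresses a luciferase gene per the labels. The comparison covers 6 of the 24 samples of the study, 3 given Omomyc for 6 h and 3 given PBS for 6 h, and it was made between 2 of 8 deposited columns. Of 23235 genes in the table, 10262 whose mean of all 8 columns reached 1 FPKM were compared. FPKM is the number of fragments scaled by transcript length and library size. Cells of all groups were grown for some days in RPMI with 1% serum, and the peptides were given at 5 µM. The neighbouring groups used here are PBS and Omomyc at 3 h, the cell-penetrating peptide FPP-1746 alone at 3 h and 6 h, and the fusion FPP-1746-Omomyc at 3 h and 6 h, each with 3 biological replicates per their titles. The 3 samples titled as fusion at 6 h carry a treatment tag of 3 h, and their titles and the table column were followed.

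MYC is a transcription factor that dimerises with MAX through a leucine zipper and binds E-boxes, most strongly the sequence CACGTG, in promoters of genes for ribosome assembly, nucleotide synthesis, metabolism and cell division. Omomyc is a mutant of the MYC dimerisation domain that pairs with MYC and MAX and occupies E-boxes without a transactivation domain. It is also part of the fusion, where FPP-1746 is meant to carry it into cells. The columns hold no measure of how much unfused Omomyc entered the cells.

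Each group is 1 column of the authors' averages over 3 replicates, so the spread between replicates is unknown and the columns allow neither a test nor a p-value. None of the differences below has a replicate check, and "higher" and "lower" describe these columns only. Ratios are log2 ratios of FPKM + 1, which understate the difference of genes with low values. The FPKM of all genes summed to 468758 in PBS at 6 h and 470660 in Omomyc at 6 h, within a range of 445657 to 594951 over the 8 columns. A rough estimate from the steps between low values put 1 FPKM of a 2000-base transcript at 106 fragments in PBS at 6 h and 90.8 in Omomyc at 6 h. Mesenchymal markers of T11 were present, with vimentin (Vim) at 3673 FPKM in PBS and 3830 FPKM in Omomyc, and 14 of 15 such markers passed the filter, Thy1 being near 0. Some genes that every cell uses were near 0, such as Gapdh at 0.457 FPKM in PBS and 0.328 FPKM in Omomyc, so a value listed at or near 0 can be a failed estimate rather than a lack of RNA. None of 14 epithelial markers and none of 7 endothelial markers passed it. The epithelial markers summed to between 0.281 and 0.644 FPKM over the columns. Of 11 macrophage and leukocyte markers, Cd14 and Cd68 passed it, while Emr1, Itgam, Tyrobp, Aif1 and Cd3e were listed at 0 in both columns compared.

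The columns of Omomyc and PBS at 6 h lay close to each other. Over all tested genes 32 were at least 2-fold higher with Omomyc (0.312% of 10262) and 38 at least 2-fold lower (0.37%). Records of microRNAs and other small RNAs made up 64 of these 70, and 43 of the 64 were listed at 0 in 1 of the 2 columns. Such short records have a high FPKM per fragment, and they were left out of what follows. Among the remaining 10122 genes, 4 were at least 2-fold higher (0.0395%) and 2 at least 2-fold lower (0.0198%). At 1.5-fold the counts were 18 higher (0.178%) and 5 lower (0.0494%), and at 1.2-fold they were 204 higher (2.02%) and 105 lower (1.04%). The median log2 ratio was 0.0018, and 51% of genes lay above 0. With the mean of both PBS columns as reference, 11 of the 18 higher genes and 3 of the 5 lower genes were still past 1.5-fold. Those no longer past it were Egr3, Hsd17b7, Lbh, Nr4a1, Per2, Sqle and 1700066J24Rik among the higher and Il33 and 1810044D09Rik among the lower. The filter used the fusion columns too, and 100 of the 10122 genes, among them Mxd1, Fos and Il6, passed it only through these.

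For scale, the 6112 genes at 10 FPKM or more had a log2 ratio with a 5th percentile of -0.14 and a 95th percentile of 0.14. FPP-1746 alone against the same PBS column gave -0.15 and 0.17 for genes at that level. The fusion at 6 h, again against the same PBS column, gave -0.89 and 1.145, with 703 genes at least 2-fold higher (6.95%) and 301 lower (2.97%). The PBS columns at 6 h and 3 h differed from each other more than Omomyc and PBS did at 6 h, with percentiles of -0.40 and 0.31. In the plot of level against ratio the Omomyc comparison forms a narrow band around 0.

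**Figure D1:**
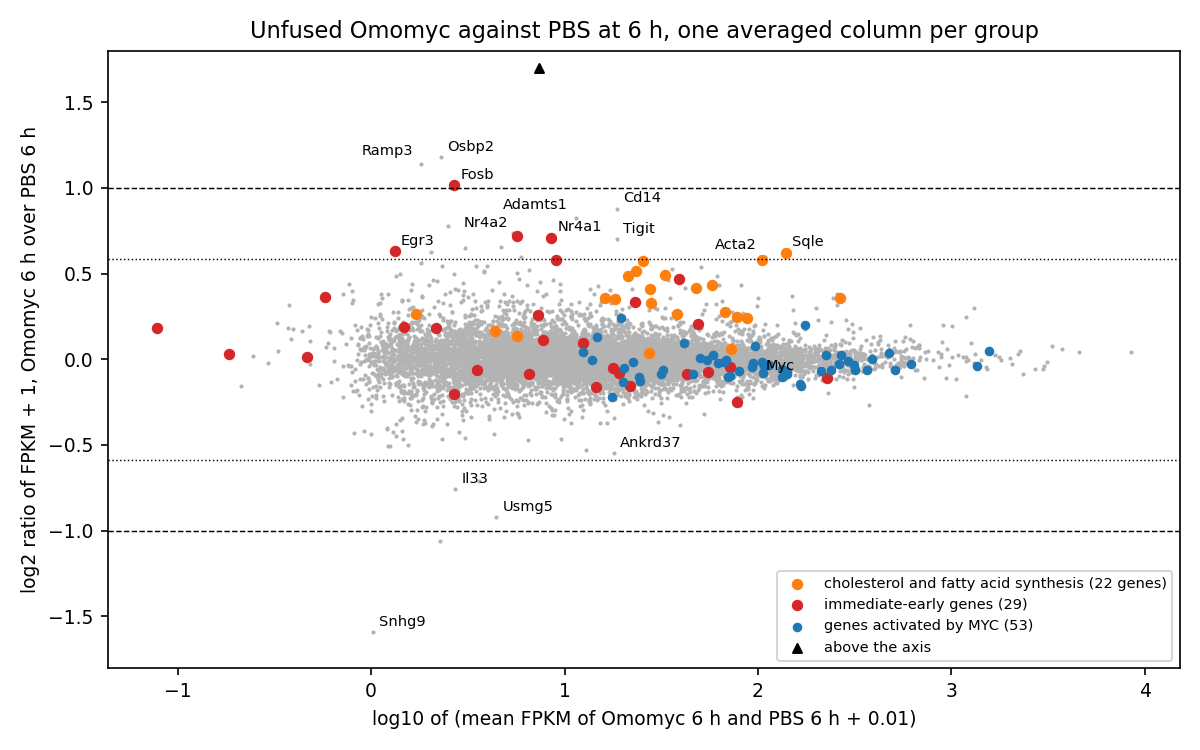
Log2 ratio of FPKM + 1 (Omomyc over PBS at 6 h, y axis) against log10 of the mean FPKM of both columns plus 0.01 (x axis) for 10122 genes without small RNAs (grey). Dashed lines mark 2-fold and dotted lines 1.5-fold. Cholesterol genes (orange) and some immediate-early genes (red) lie above the band, and genes activated by MYC (blue) lie within it. The triangle is LOC100302567, above the axis.

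MYC itself and its partners were at similar levels with and without Omomyc. Myc was at 106 FPKM in PBS and 98.7 FPKM in Omomyc at 6 h, and at 161 and 166 FPKM at 3 h. Max, the obligate partner, was at 44.4 and 42.9 FPKM at 6 h and at 57.6 and 57.5 FPKM at 3 h. Both genes were lower at 6 h than at 3 h in PBS as well as in Omomyc, a difference between times larger than that between treatments. In the fusion column at 6 h Myc was at 447 FPKM and Max at 61.7 FPKM.

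Of the 13 genes of the MYC, MAX, MXD and MLX network, 11 were tested and Mycn and Mlxipl were listed at 0 in all columns. Their log2 ratios ran from -0.16 to 0.20 with 4 above and 7 below 0. The highest was Mnt, a MAX-binding repressor, at 4.34 FPKM in PBS and 5.11 FPKM in Omomyc, and FPP-1746 alone had 5.11 FPKM too. With the mean of both PBS columns as reference its ratio turned from 0.20 to -0.17. The lowest was Mxd1, another such repressor, at 1.16 and 0.939 FPKM, with 0.891 FPKM under FPP-1746. Mxd3 had a ratio of 0.13 and Mxd4 of 0.10. Among the rest, Mga had 0.04, Mycl1 -0.02, Mxi1 -0.04, Mlx -0.07 and Mlxip -0.09. None of the 11 was past 1.2-fold.

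A list of 53 genes that MYC is known to activate had a median log2 ratio of -0.039 at 6 h, beside 0.0018 for all genes. Of these, 13 lay above 0 and 40 below, where 51% of all genes lay above 0. None of the 53 was past 1.2-fold, which 3.05% of all genes were. The lowest was Tfap4, a MYC-induced transcription factor, at 19.0 FPKM in PBS and 16.2 FPKM in Omomyc. The highest was Fbl, the methyltransferase fibrillarin of the nucleolus, at 17.8 and 21.2 FPKM, but with FPP-1746 at 6 h as reference its ratio turned to -0.11. Nolc1, a nucleolar chaperone, was at 177 FPKM in PBS and 159 FPKM in Omomyc (log2 ratio -0.16), and Tfrc, the transferrin receptor, at 163 and 187 FPKM (0.20). Ncl, which encodes nucleolin, was at 372 and 357 FPKM, and Odc1, the rate-limiting enzyme of polyamine synthesis, at 54.5 and 54.4 FPKM. At 3 h the median of the 53 genes was 0.0069 with 31 above 0, where 55.2% of all genes lay above 0. Beside FPP-1746 at 6 h in place of PBS, the median was -0.071 with 6 of 53 above 0, where 47.8% of all genes lay above 0. FPP-1746 itself lay slightly above the PBS column at 6 h, with a median of 0.030 and 35 of 53 above 0 (52.6% of all genes). The fusion column at 6 h gave -0.39 against PBS. Most of the list thus lay slightly below PBS at 6 h, with no member far from it.

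Further lists tied to growth gave values of the same size, where 51% of all genes lay above 0 with a median of 0.0018. For RNA polymerase I and ribosome assembly, 5 of 29 genes lay above 0 and 24 below with a median of -0.039, led by Noc4l at 52.8 FPKM in PBS and 46.9 FPKM in Omomyc. DNA replication and G1/S genes had 8 above and 20 below with a median of -0.045, and cyclin D1 (Ccnd1) was at 262 and 242 FPKM. The 25 mitosis genes went the other way, with 19 above 0 and a median of 0.037. In the same order, FPP-1746 against the same PBS column had 19 of 29, 11 of 28 and 4 of 25 genes above 0, where 52.6% of all genes were. The 42 ribosomal protein genes had a median of -0.0064. These are uncertain, since many ribosomal protein genes have near-identical processed copies and some were listed at very low levels, such as Rpl28 at 0.844 and 1.40 FPKM.

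Genes that MYC is known to repress had a median of -0.039, with 6 of 16 tested members above 0. Without Txnip, which passed the filter only through the fusion columns, the median was -0.024 with 6 of 15 above 0. Ndrg1, a stress and differentiation gene that hypoxia also induces, was at 34.3 FPKM in PBS and 26.4 FPKM in Omomyc at 6 h. At 3 h its order was the reverse, with 29.8 and 39.8 FPKM. Gadd45a, a DNA damage response gene, was at 11.2 and 8.58 FPKM at 6 h. The cell cycle inhibitor p21 (Cdkn1a) was at 3.05 and 2.45 FPKM, and at 25.7 FPKM in the fusion column. Past 1.2-fold downward were 4 of the 16, where 1.04% of all genes were, namely Ndrg1, its relative Ndrg2, Gadd45a and Ccng2. Gas1, a growth arrest gene, was the single member past 1.2-fold upward, where 2.02% of all genes were, at 57.7 and 73.2 FPKM. At 3 h the log2 ratios of Gadd45a (0.18), Cdkn1a (0.16), Ccng2 (0.05) and Gas1 (-0.11) also had the opposite sign, while Ndrg2 had -0.20. With FPP-1746 at 6 h as reference the ratio of Ndrg2 turned to 0.24, and those of Ndrg1, Gadd45a and Ccng2 stayed below 0.

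The E-box is shown in the promoters of some of these genes to set their levels beside the motif that MYC and MAX bind. Promoter windows from RefSeq (GRCm38.p6), 250 bases before to 50 after a start, were matched by symbol or synonym to 8164 of the 10122 genes. CACGTG, which reads the same on both strands, occurred in 7.15% of all windows of this length and in 1018 of the 8164 genes. Each stretch below lies upstream of a start and is written 5′ to 3′ on the strand of the gene, with every CACGTG in capitals.
Cdk4, chr10:127063377-127063462 (+): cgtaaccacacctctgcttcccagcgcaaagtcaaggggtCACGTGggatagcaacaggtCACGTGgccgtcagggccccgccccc
Nme1, chr11:93968273-93968330 (-): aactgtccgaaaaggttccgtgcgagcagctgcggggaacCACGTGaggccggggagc
Nop2, chr6:125131783-125131868 (+): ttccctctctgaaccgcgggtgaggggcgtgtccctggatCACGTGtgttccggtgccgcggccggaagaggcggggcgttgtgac
Ldha, chr7:46845716-46845801 (+): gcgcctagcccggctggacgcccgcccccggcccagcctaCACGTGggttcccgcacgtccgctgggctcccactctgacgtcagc
Insig1, chr5:28071271-28071356 (+): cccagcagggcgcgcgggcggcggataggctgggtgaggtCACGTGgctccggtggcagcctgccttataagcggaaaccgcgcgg

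The 4 genes from the list of genes activated by MYC with these E-boxes were at near-equal levels. Cdk4, a kinase of G1, was at 625 FPKM in PBS and 614 FPKM in Omomyc at 6 h. Nme1, a nucleoside diphosphate kinase, was at 324 and 310 FPKM. Nop2, an rRNA methyltransferase, was at 146 and 137 FPKM. Ldha, the lactate dehydrogenase A chain, was at 1533 and 1583 FPKM. Insig1, which holds the sterol sensor in the endoplasmic reticulum, carries an E-box too but belongs to the cholesterol genes described below, and it was at 17.6 and 25.0 FPKM. Over all matched genes, those with CACGTG had a median log2 ratio of -0.0086 with 46.4% above 0, and those without it 0.0018 with 51.0% above 0. Past 1.5-fold were 3 of the 1018 genes with the motif (0.295%) and 15 of the 7146 without it (0.21%). Within the list of genes activated by MYC, 11 of 47 matched genes had the motif, with a median of -0.019, and the 36 without it had -0.056. A match is a run of letters, not a site shown to be bound.

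The genes most above PBS at 6 h were few and mostly of low level. Osbp2, of the oxysterol-binding protein family (mm9 chr11:3603734-3763906), was at 1.01 FPKM in PBS, 3.55 FPKM in Omomyc and 1.66 FPKM in FPP-1746, a log2 ratio of 1.18 for Omomyc over PBS. At 3 h it was at 0.843, 0.962 and 0.879 FPKM in the same order. Ramp3, which modifies the receptor for calcitonin-like peptides (mm9 chr11:6550151-6577478, a locus the table shares with another gene), was at 0.747 FPKM in PBS, 2.85 in Omomyc and 1.56 in FPP-1746, a log2 ratio of 1.142. At 3 h it was at 1.03, 0.893 and 0.932 FPKM. For both genes the Omomyc column at 6 h was the highest of the 6 columns without the fusion, and FPP-1746 at 6 h was next. In the fusion at 6 h Osbp2 reached 16.3 FPKM and Ramp3 51.6 FPKM.

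Fosb, a subunit of AP-1 and an immediate-early gene (mm9 chr7:19888045-19895394), was at 1.44 FPKM in PBS, 3.92 FPKM in Omomyc and 1.69 FPKM in FPP-1746 at 6 h, a log2 ratio of 1.02. Its 3 h values of 1.82, 1.97 and 1.75 FPKM lay close together. The fourth gene past 2-fold, LOC100302567, is a predicted record that was named after its values were seen. Its PBS value at 6 h was 0, while Omomyc had 14.7 FPKM and FPP-1746 had 25.8 FPKM, and its locus is also that of the ribosomal protein gene Rps16, at 1.84 FPKM in PBS and 1.06 FPKM in Omomyc. Past 2-fold downward were Snhg9, a host gene of a small nucleolar RNA, and Gm20571, a predicted gene named after its values were seen. Snhg9 was at 2.01 FPKM in PBS and listed at 0 in Omomyc, FPP-1746 and the fusion at 6 h and in Omomyc at 3 h, and its locus is shared with another gene. Gm20571 was at 3.40 FPKM in PBS, 1.11 FPKM in Omomyc and 1.95 FPKM in FPP-1746. Past 1.5-fold downward were also Il33 and Usmg5, described below, and the predicted gene 1810044D09Rik, at 4.69 FPKM in PBS, 2.48 FPKM in Omomyc and 3.37 FPKM in FPP-1746.

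The genes past 1.5-fold but not 2-fold include several with higher levels. Cd14, a co-receptor for lipopolysaccharide, was at 12.9 FPKM in PBS, 24.5 FPKM in Omomyc and 13.3 FPKM in FPP-1746 at 6 h, a log2 ratio of 0.88. Its 3 h values were 10.1, 11.3 and 10.2 FPKM, and the fusion column at 6 h had 118 FPKM. The Omomyc column thus stood apart at 6 h, while FPP-1746 stayed near PBS. Tigit, an inhibitory receptor known from T and NK cells, was at 13.99, 23.4 and 10.9 FPKM in PBS, Omomyc and FPP-1746 at 6 h, and at 7.82, 10.2 and 9.79 FPKM at 3 h. Cd3e, a marker of T cells, was listed at 0 in both columns compared. Tigit was 1 of 2 genes at least 2-fold higher in Omomyc than in FPP-1746 at 6 h (0.0198% of 10122), with a log2 ratio of 1.03.

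Adamts1, a secreted protease of proteoglycans, was at 8.01 FPKM in PBS, 14.97 FPKM in Omomyc and 12.3 FPKM in FPP-1746 at 6 h. At 3 h it was at 8.93, 11.3 and 10.4 FPKM. Pde4b, a phosphodiesterase that breaks down cyclic AMP, was at 3.83, 7.04 and 5.73 FPKM at 6 h and at 2.59, 4.30 and 4.12 FPKM at 3 h. In both genes FPP-1746 lay between PBS and Omomyc at each time. Lbh, a transcriptional cofactor of limb and heart development, was at 2.14, 3.92 and 2.28 FPKM at 6 h. Its 3 h values of 4.93, 6.77 and 6.35 FPKM were all higher than that of Omomyc at 6 h, and with the mean of both PBS columns as reference its log2 ratio fell from 0.65 to 0.12. Per2, a repressor of the circadian clock, was at 1.39, 2.69 and 1.75 FPKM. Msmp was at 1.57, 3.41 and 2.00 FPKM, and its locus is shared by 4 genes of the table. Pde4b, Lbh and Msmp were named after their values were seen.

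**Figure D2:**
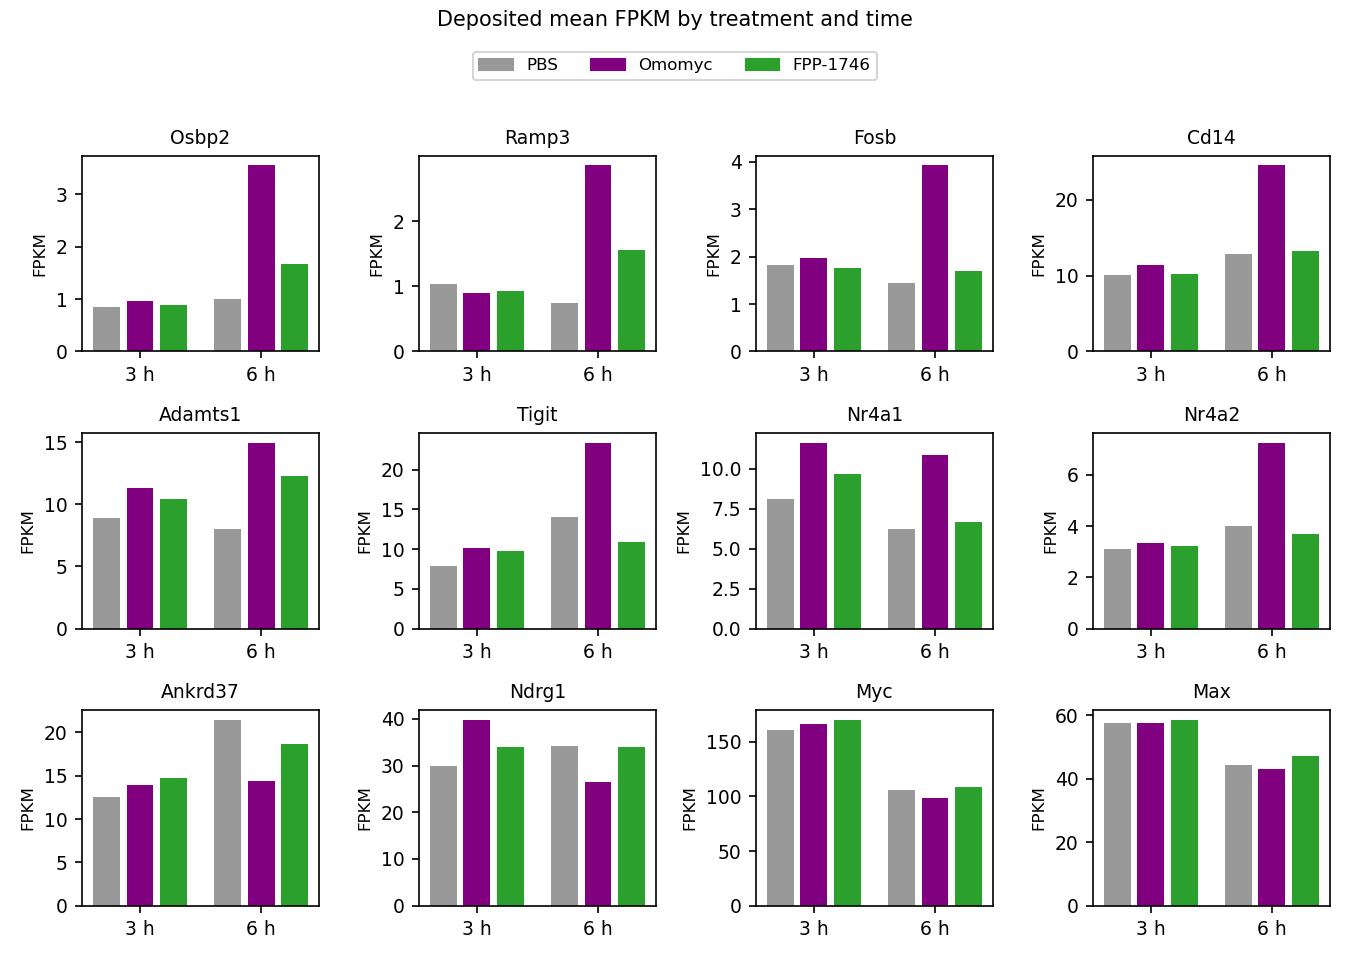
Deposited mean FPKM (y axis, from 0, own scale for each gene) of 12 genes in PBS (grey), Omomyc (purple) and FPP-1746 (green) at 3 h and 6 h, 1 bar per averaged column with no error available. Osbp2, Ramp3, Fosb, Cd14, Tigit and Nr4a2 have their highest bar in Omomyc at 6 h, while Myc and Max differ more between times than between treatments.

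Immediate-early genes, which cells transcribe within minutes of a stimulus, were the list with the most members past 1.5-fold. Of 29 tested genes, 17 lay above 0 and 12 below, with a median of 0.095. Without the 4 members that passed the filter only through the fusion columns, 13 of 25 lay above 0, with a median of 0.095. Over all genes 51% lay above 0. With the mean of both PBS columns as reference the median of the 29 turned to -0.093. Past 1.5-fold were 4 upward and none downward, where 0.178% and 0.0494% of all genes were, and 8 were past 1.2-fold upward, where 2.02% of all genes were. Fos, which passed the filter only through the fusion columns, was among the 8. The 4 were Fosb, Egr3, Nr4a1 and Nr4a2. Nr4a1, an orphan nuclear receptor, was at 6.25 FPKM in PBS, 10.8 FPKM in Omomyc and 6.68 FPKM in FPP-1746 at 6 h, a log2 ratio of 0.71, and at 8.11, 11.6 and 9.67 FPKM at 3 h. Both Omomyc columns of Nr4a1 therefore lay above all 4 columns of PBS and FPP-1746. Nr4a2, its relative, was at 4.01, 7.26 and 3.70 FPKM at 6 h (0.72) and between 3.12 and 3.32 FPKM at 3 h. Egr3, a zinc-finger factor, was at 0.814, 1.81 and 0.910 FPKM at 6 h, and its PBS column at 3 h, at 1.71 FPKM, was nearly as high as Omomyc at 6 h.

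Just under 1.5-fold, Dusp1, a phosphatase of MAP kinases, was at 7.08, 11.1 and 8.49 FPKM in PBS, Omomyc and FPP-1746 at 6 h and at 10.9, 19.1 and 17.7 FPKM at 3 h. Jund was at 32.7, 45.6 and 41.1 FPKM at 6 h. Fos itself was low, at 0.370 FPKM in PBS and 0.760 FPKM in Omomyc, and it was 1 of 4 members that passed the filter only through the fusion columns. Other members lay at or below PBS, such as Ier3 at 84.5 and 71.0 FPKM and Fosl1 at 238 and 220 FPKM. The summed level of the list was 734 FPKM in PBS and 733 FPKM in Omomyc, so the sums of both columns were nearly equal. In FPP-1746 at 6 h against the same PBS column the list had a median of -0.0009.

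**Figure D3:**
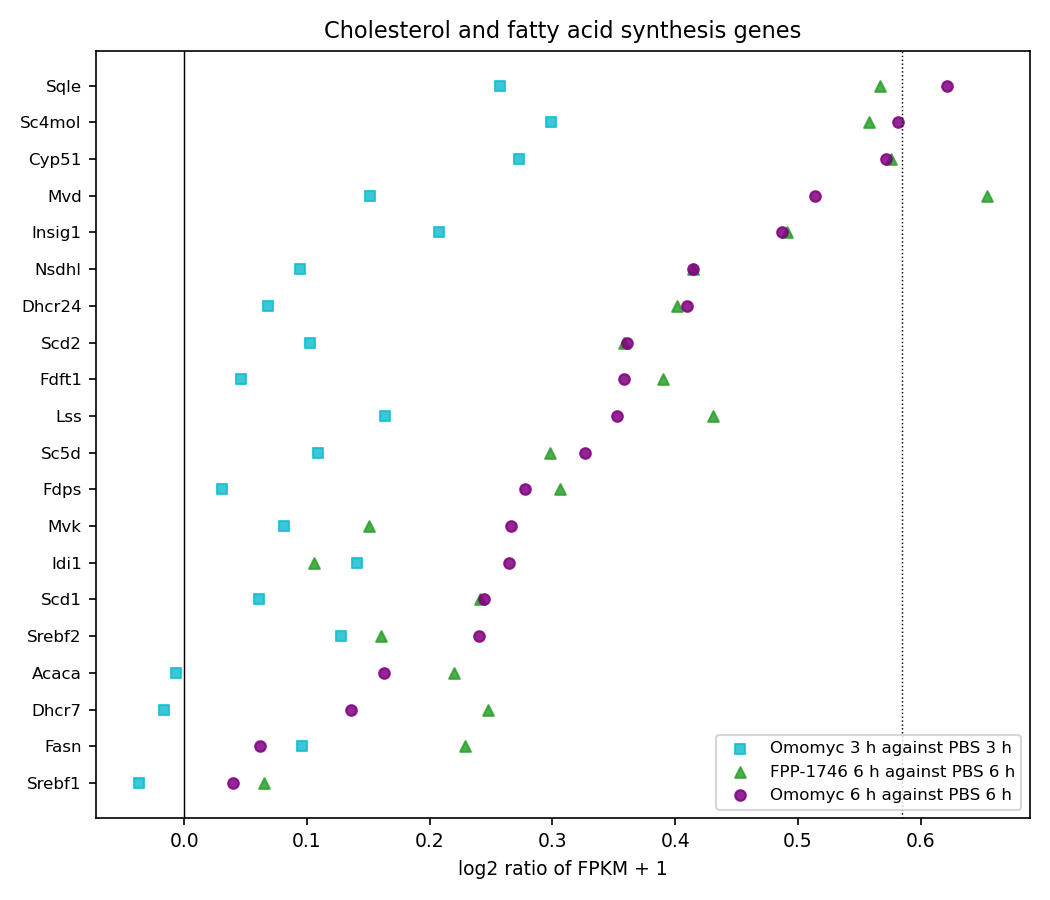
Log2 ratio of FPKM + 1 (x axis) of 20 of the 22 tested genes of cholesterol and fatty acid synthesis (y axis, ordered by Omomyc at 6 h) for Omomyc at 6 h (circles), FPP-1746 at 6 h (triangles) and Omomyc at 3 h (squares), each against PBS of the same time. All circles and triangles lie right of 0, and those of a gene often coincide. Both use the same PBS column.

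Genes of cholesterol and fatty acid synthesis were the list farthest from all genes. All 22 tested members were higher with Omomyc at 6 h, where 51% of all genes lay above 0. The median log2 ratio was 0.36 beside 0.0018, and 16 of the 22 were past 1.2-fold upward, where 2.02% of all genes were. Their FPKM summed to 1033 in PBS and 1347 in Omomyc. FPP-1746 alone had 1345 FPKM, with a median of 0.37 and 22 of 22 above 0 (52.6% of all genes) against the same PBS column. Set directly against FPP-1746 at 6 h, Omomyc had a median of 0.0010 with 11 of 22 genes above 0. The difference from PBS was therefore as large in the column of the peptide that holds no Omomyc. At 3 h, where Omomyc is compared with another PBS column, the median was 0.11 with 19 of 22 above 0. In the fusion at 6 h the median was 0.056, but members differed widely. The 4 members with the largest Omomyc ratios had fusion ratios of 0.63 (Sqle), 1.03 (Sc4mol), 0.54 (Cyp51) and 0.03 (Mvd) against the same PBS column.

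By step of the pathway, Mvd, which makes isopentenyl diphosphate, was at 19.1 FPKM in PBS, 27.7 FPKM in Omomyc and 30.6 FPKM in FPP-1746 at 6 h. Sqle, the squalene epoxidase that commits to sterols, was the only member past 1.5-fold, at 109, 169 and 162 FPKM at 6 h and at 120, 144 and 137 FPKM at 3 h. Cyp51, the lanosterol demethylase, was at 20.2, 30.5 and 30.6 FPKM, and Sc4mol, the methylsterol oxidase, at 83.9, 126 and 124 FPKM. For each of these the Omomyc and FPP-1746 columns at 6 h lay above both PBS columns and close to each other.

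Genes that sense sterols followed. Insig1 had 17.6, 25.0 and 25.1 FPKM in PBS, Omomyc and FPP-1746 at 6 h and 25.7, 29.8 and 28.6 FPKM at 3 h, so that its Omomyc level at 6 h was below that of PBS at 3 h. Srebf2, the regulator of sterol genes, was at 80.2, 94.9 and 89.7 FPKM, and Srebf1, the regulator of fatty acid genes, at 26.9, 27.6 and 28.1 FPKM. Fatty acid enzymes differed less, with Fasn at 70.7, 73.9 and 83.0 FPKM, although Scd2, a desaturase, was at 232, 298 and 298 FPKM. Outside the list and named after its values were seen, Hsd17b7, a ketoreductase of cholesterol synthesis, was also past 1.5-fold at 4.52, 7.35 and 6.94 FPKM. Hmgcs1 was listed at 0 in all columns. The motif TCACNCCAC, searched on both strands as the core sequence bound by SREBP factors, was in the windows of none of the 14 matched genes of the list. Over all matched genes it was in those of 105 of 8164 (1.29%), and in 1.24% of all single windows. CACGTG was in 3 of the 14 genes, Insig1, Sc5d and Dhcr7.

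The list of 20 tested TGF-beta, contractile and matrix genes had a median of 0.088 with 15 above 0 and 5 below at 6 h. Past 1.2-fold upward were 4 members, where 2.02% of all genes were, and of these Acta2 alone was past 1.5-fold. FPP-1746 had a median of 0.28 and the fusion -0.80 against the same PBS column, and with FPP-1746 at 6 h as reference the median for Omomyc turned to -0.12. The members with the largest ratios encode parts of the contractile apparatus. Acta2, smooth muscle actin, was at 86.2 FPKM in PBS, 131 FPKM in Omomyc and 143 FPKM in FPP-1746 at 6 h, and at 62.2, 101 and 101 FPKM at 3 h, so each Omomyc and FPP-1746 column lay above the PBS column of its time. The log2 ratio of Omomyc over PBS was 0.60 at 6 h and 0.69 at 3 h. Actin genes are close in sequence and reads may be split among them. Tagln, an actin-binding protein of smooth muscle, was at 4.50, 6.80 and 7.74 FPKM at 6 h, and Myl9, a myosin light chain, at 8.06, 10.9 and 9.0 FPKM. In the fusion at 6 h Acta2 was at 13.5, Tagln at 1.06 and Myl9 at 0.770 FPKM, below every other 6 h column.

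Over 18 tested genes of glycolysis and hypoxia the median was 0.013, with 10 above 0. Past 1.2-fold were 3 downward, where 1.04% of all genes were, and none upward. The 3 were Ankrd37, Car9 and Ndrg1, all known to be induced by hypoxia, while Vegfa and Bnip3, also induced by it, had ratios of 0.10 and 0.08. Ankrd37 was at 21.5 FPKM in PBS, 14.4 FPKM in Omomyc and 18.6 FPKM in FPP-1746 at 6 h, a log2 ratio of -0.55, the lowest among named genes at 10 FPKM or more. Its 3 h columns were at 12.6, 13.9 and 14.7 FPKM, so the PBS column at 6 h was the high one and Omomyc at 6 h was near the 3 h level. Car9, a membrane carbonic anhydrase, was at 11.2, 7.84 and 10.9 FPKM at 6 h. Egln3, a prolyl hydroxylase of the hypoxia factor, was at 24.7, 21.4 and 24.7 FPKM. Glycolytic enzymes on the same list lay on both sides of 0, from phosphoglycerate kinase Pgk1 (-0.17) to phosphoglycerate mutase Pgam1 (0.18). At 3 h the tested members were all above 0 (18 of 18, median 0.11), where 55.2% of all genes were.

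Further genes among the lowest ratios at 10 FPKM or more were not on the glycolysis and hypoxia list. Ero1l, an oxidase of the endoplasmic reticulum, was at 36.2, 28.7 and 39.8 FPKM in PBS, Omomyc and FPP-1746 at 6 h. Atoh8, a basic helix-loop-helix factor, was at 15.4, 10.4 and 15.7 FPKM at 6 h and at 12.9, 10.2 and 11.2 FPKM at 3 h. It was thus below both other treatments at each time. Heme oxygenase (Hmox1) was at 44.9, 34.2 and 43.2 FPKM at 6 h, and the chaperone Hspa8 at 58.6, 46.8 and 53.9 FPKM. Foxc2, a forkhead factor, was at 17.4, 13.2 and 21.4 FPKM. Fhl2, a LIM-domain cofactor, was at 11.8, 9.24 and 12.2 FPKM, but at 33.4, 43.4 and 46.9 FPKM at 3 h. Hbegf, a ligand of the EGF receptor, was at 31.8, 25.4 and 32.0 FPKM at 6 h, and at 66.2, 76.9 and 86.6 FPKM at 3 h. In Fhl2 and Hbegf the level in PBS at 6 h was less than that at 3 h by more than the treatments differed, and the order of Omomyc and PBS was the reverse at 3 h. Pdrg1, D4Wsu53e and Mgp, the matrix Gla protein that inhibits calcification, had ratios of -0.34, -0.37 and -0.30, and that of Mgp turned to 0.17 with FPP-1746 at 6 h as reference.

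The NF-kB and cytokine list had 18 tested genes with 12 above 0 and a median of 0.11 at 6 h. Without Il6, which passed the filter only through the fusion columns, 11 of 17 lay above 0 with a median of 0.0998. Prostaglandin synthase 2 (Ptgs2) was at 29.4 FPKM in PBS, 42.8 FPKM in Omomyc and 35.7 FPKM in FPP-1746 at 6 h, and at 68.9, 109 and 127 FPKM at 3 h. With the mean of both PBS columns as reference its ratio turned from 0.53 to -0.20. The chemokine Cxcl1 was at 36.0, 48.3 and 41.3 FPKM at 6 h, and Il6 was low, at 0.492, 1.02 and 0.328 FPKM. Below PBS lay the alarmin Il33, at 3.67, 1.76 and 1.22 FPKM, and the growth factor Csf1, at 408, 339 and 362 FPKM. The list median was -0.064 at 3 h and -0.13 for FPP-1746 at 6 h against the same PBS column. Directly against FPP-1746 at 6 h, Omomyc had a median of 0.25 with 15 of 18 above 0, where 47.8% of all genes lay above 0. Cd14, which is not on this list, is also a macrophage marker, and Cd68 was at 1.38 FPKM in PBS and 1.34 FPKM in Omomyc. Ptprc, Csf1r and Lyz2 were below 0.1 FPKM in all columns, and the other markers of that kind were at or near 0.

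Across the 25 lists of pathways, 22 had a median between -0.1 and 0.1, and the exceptions were the cholesterol list, the NF-kB list and the 7 genes of the metal response (median -0.12). Without Il6, which passed the filter only through the fusion columns, the NF-kB median was 0.0998, inside that range. In the metal response, metallothionein 1 (Mt1) was at 246 FPKM in PBS, 215 FPKM in Omomyc and 196 FPKM in FPP-1746. The integrated stress response list had a median of 0.036, which turned to -0.13 with both PBS columns as reference, with Chac1, which degrades glutathione, at 14.6 and 19.6 FPKM. In the unfolded protein response 16 of 18 genes lay above 0, with a median of 0.038, beside 18 of 18 and 0.12 for FPP-1746. The p53 response had a median of 0.0017 and contained Eda2r, of the TNF receptor family, at 1.68 and 2.68 FPKM. Without Btg2, which passed the filter only through the fusion columns, its median turned to -0.0097 with 6 of 13 above 0. Lysosome and endocytosis genes had 0.026, with caveolin 1 (Cav1) at 223 FPKM in PBS, 292 FPKM in Omomyc and 248 FPKM in FPP-1746. The plot of lists shows each member.

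**Figure D4:**
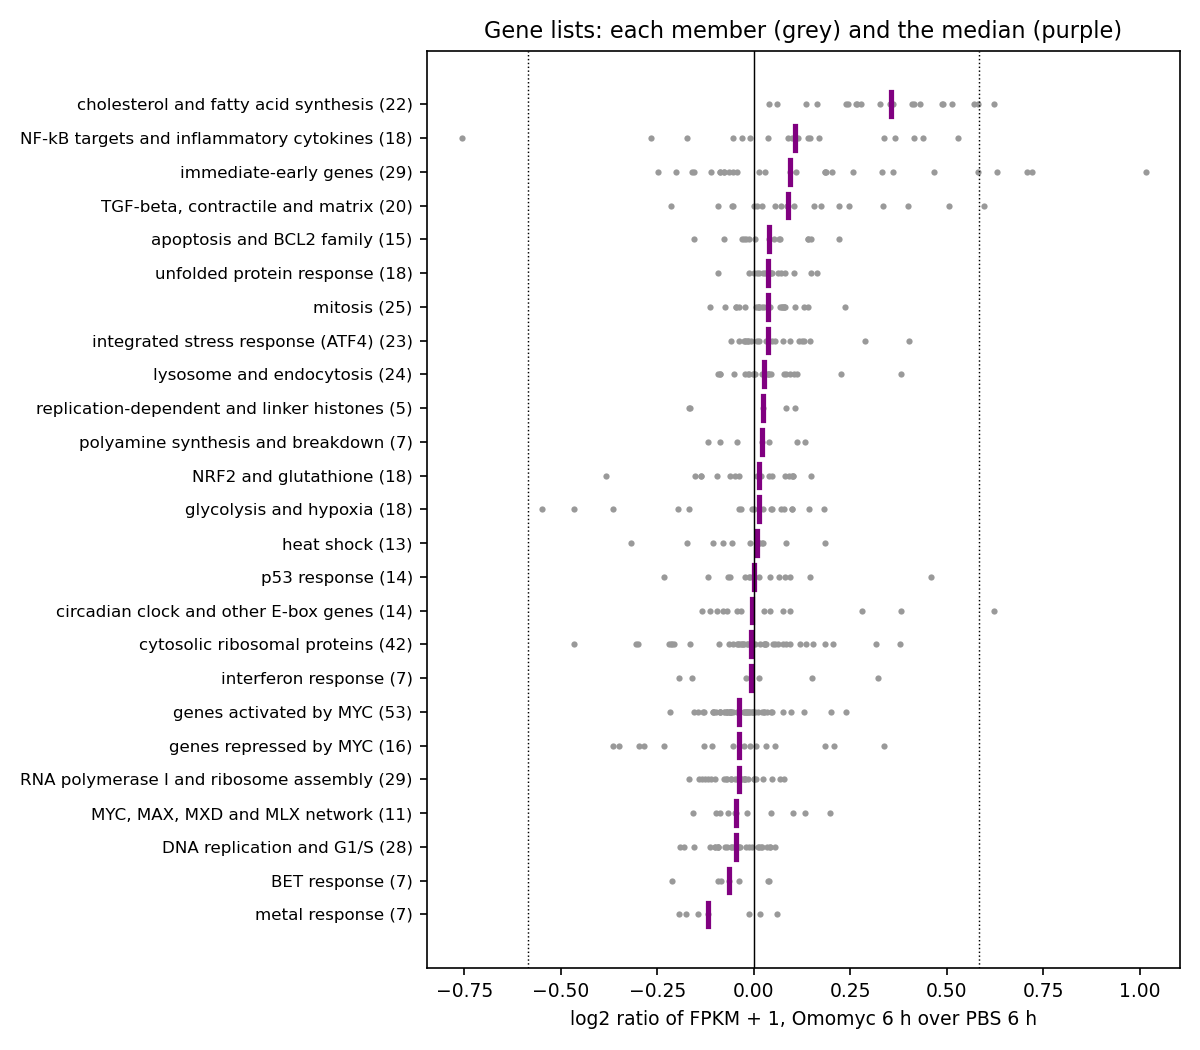
Log2 ratio of FPKM + 1, Omomyc over PBS at 6 h (x axis), for each tested member (grey points) of 25 gene lists (y axis, number of tested members in brackets), with the median in purple and dotted lines at 1.5-fold. The cholesterol list has its median at 0.36, and 22 lists have medians between -0.1 and 0.1.

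The 3 h and 6 h comparisons of Omomyc with PBS share no column, so their calls can be counted against each other. At 3 h, 13 genes were at least 1.5-fold higher (0.128%) and 9 lower (0.0889%). Acta2 was higher at both times, 1 of 13 (7.69%) and 1 of 18 (5.56%). Snhg9 and Usmg5 were lower at both times, 2 of 9 (22.2%) and 2 of 5 (40%). Usmg5, a small subunit of the mitochondrial ATP synthase, was at 6.08 FPKM in PBS and 2.74 FPKM in Omomyc at 6 h and at 9.90 and 5.41 FPKM at 3 h. FPP-1746 was at 5.2 FPKM at 3 h, as low as Omomyc, and at 5.77 FPKM at 6 h, near PBS. Its locus is shared with another gene. At 1.2-fold, 41 genes were higher at both times, 21.6% of the 190 at 3 h (1.88% of all genes) and 20.1% of the 204 at 6 h. Lower at both times were 16 genes, 9.76% of 164 at 3 h (1.62% of all genes) and 15.2% of 105 at 6 h. Of the 18 genes at least 1.5-fold higher at 6 h, 16 lay above 0 at 3 h, where 55.2% of all genes did. Their median log2 ratio at 3 h was 0.13, and only Acta2 was past 1.5-fold at that time.

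Another reading sets both Omomyc columns against all 4 columns of PBS and FPP-1746, so that no single PBS column decides. In 226 genes both Omomyc columns were the higher (2.23%) and in 174 the lower (1.72%). Both FPP-1746 columns stood apart in the same way in 247 (2.44%) and 248 genes (2.45%), and both PBS columns in 345 (3.41%) and 460 (4.54%). Whether these counts differ was not tested. The largest gap upward was that of Spry1, an inhibitor of receptor tyrosine kinase signalling, at 8.55 FPKM at 3 h and 8.4 FPKM at 6 h in Omomyc. PBS was at 7.39 and 7.42 FPKM and FPP-1746 at 5.97 and 6.62 FPKM. Nr4a1 and Sik1, a salt-inducible kinase, followed. Sik1 was at 12.2 and 10.8 FPKM in Omomyc, 8.69 and 8.29 FPKM in PBS and 9.77 and 9.35 FPKM in FPP-1746. Cetn4 and Mtfp1 completed the 5 with gaps of 0.11 and 0.12 on the log2 scale.

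Downward, the largest gap was that of Kazald1, a secreted protein, at 2.99 and 3.52 FPKM in Omomyc at 3 h and 6 h. PBS was at 4.83 and 5.11 FPKM and FPP-1746 at 4.23 and 5.35 FPKM. Smad9, a SMAD of the BMP pathway, was at 2.23 and 1.94 FPKM in Omomyc, 3.45 and 2.67 FPKM in PBS and 3.21 and 2.97 FPKM in FPP-1746. Jmjd8, Atoh8 and Orai2 had gaps of -0.12, -0.11 and -0.09. Apart from Atoh8, these genes lay below 6 FPKM in all columns.

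The fusion at 3 h gives a list of genes from columns that the Omomyc comparison at 6 h does not use. It was taken up after values were seen. At least 2-fold higher with the fusion at 3 h were 598 genes (5.91% of 10122) and lower 414 (4.09%). Some of the 598, such as Fos and Il6, passed the filter only through the fusion columns. Medians, shares above 0 and counts past 1.2-fold without such genes were not computed. Genes with a mean below 1 FPKM in Omomyc and PBS at 6 h had a 95th percentile of 0.32, beside 0.18 for all genes. The values below therefore cannot separate a shared difference from the effect of this filter. Of the 18 genes at least 1.5-fold higher with Omomyc at 6 h, 11 were among the 598, which is 61.1% of the 18 and 1.84% of the 598. The 11 were Osbp2, Ramp3, Fosb, Cd14, Adamts1, Pde4b, Nr4a2, Nr4a1, Tigit, Egr3 and Per2. Over all 598, Omomyc at 6 h had a median log2 ratio of 0.048 with 66.2% above 0, where 51% of all genes were. FPP-1746 at 6 h had 0.023 with 58.0% above 0 against the same PBS column. Of the 598, 58 (9.70%) were past 1.2-fold upward with Omomyc and 20 (3.34%) with FPP-1746, where 2.02% and 1.81% of all genes were. Omomyc set against FPP-1746 at 6 h had a median of 0.018 and 10 genes past 1.5-fold upward, where 0.188% of all genes were.

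Among the 414 genes lower with the fusion at 3 h, Omomyc at 6 h had a median of -0.036 with 63.5% below 0, where 51% of all genes lay above 0. FPP-1746 at 6 h had -0.0020 with 50.7% below 0. The 9110 other genes had a median of 0.0013 with Omomyc. Sizes in the fusion were far larger. Nr4a1 was at 314 FPKM in the fusion and 8.11 FPKM in PBS at 3 h, beside 10.8 and 6.25 FPKM for Omomyc and PBS at 6 h. Fosb was at 137 and 1.82 FPKM, beside 3.92 and 1.44 FPKM. The direction differed for Acta2, which was at 21.7 FPKM in the fusion and 62.2 FPKM in PBS at 3 h, while both Omomyc columns lay above PBS.

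**Figure D5:**
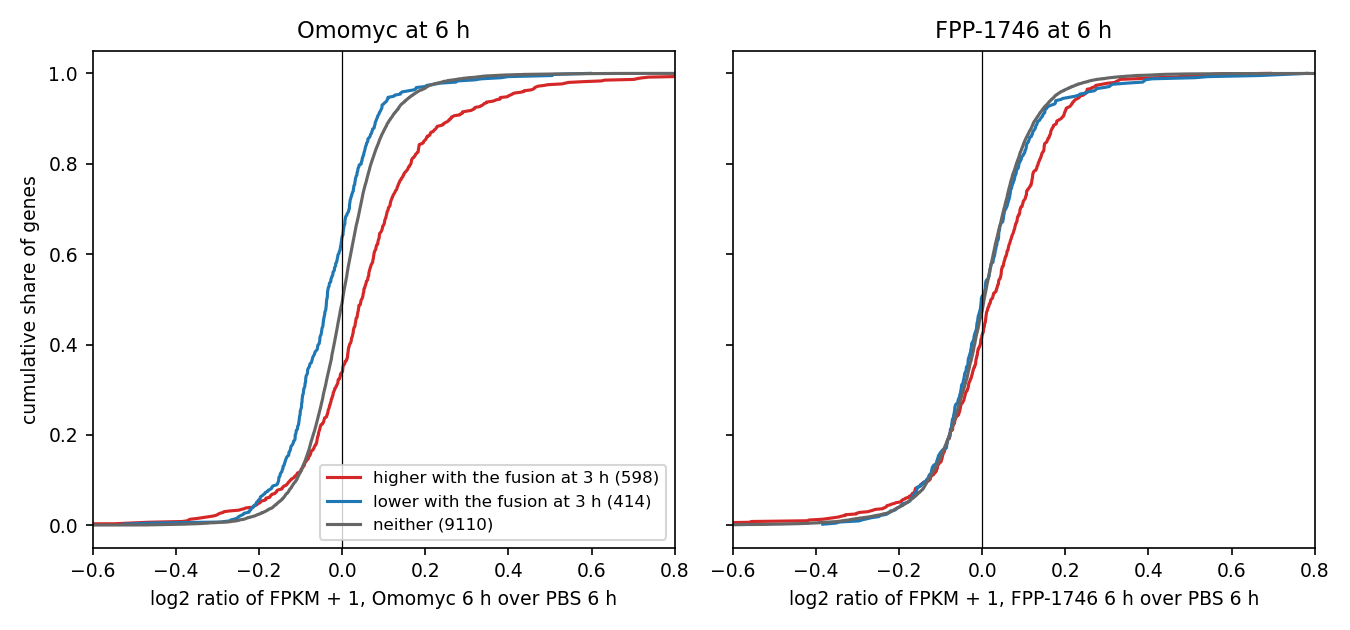
Cumulative share of genes (y axis) by log2 ratio of FPKM + 1 over PBS at 6 h (x axis) for Omomyc (left) and FPP-1746 (right), for genes higher (red, 598), lower (blue, 414) or neither (grey, 9110) with the fusion at 3 h. With Omomyc the red curve lies to the right (median 0.048) and the blue curve to the left (-0.036) of grey. With FPP-1746 the medians are 0.023 (red), -0.0020 (blue) and 0.0046 (grey). There the 95th percentile is 0.23 for blue and 0.18 for grey.

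Limits of these values rest on the averaging, on low levels and on the reference column. With a pseudocount of 0.1 FPKM the counts past 1.5-fold were 49 higher and 21 lower, and with 5 FPKM they were 4 and 0. With the mean of the PBS columns at 3 h and 6 h as reference, the count at least 1.5-fold lower was 34 instead of 5.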

How the data were processed

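RNA-seq of total RNA was described by 1 deposited table of FPKM, which holds the authors' averages of 3 biological replicates for each of 8 groups. Per the submitters' processing notes, the tools were Cuffnorm 2.2.1, Cufflinks 2.2.1, STAR 2.1.3 and bcl2fastq 2.17.1.14, with build mm9. Their order and settings, the library scaling and any counting by strand are, in the sources used here, not given, so overlapping or antisense genes cannot be told apart. Groups follow the sample titles. The depth is known only as the rough step estimate given above, from 29 to 48 low values per column among 797 single-transcript genes.

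Log2 ratios of FPKM + 1 were computed with Python 3.11.15, numpy 2.4.6 and pandas 2.3.3, for genes averaging 1 FPKM or more, and called at 2-fold, 1.5-fold or 1.2-fold. With 1 column per group no test was possible. The calling was tested on simulated data. How reliable the calls in these columns are, at any fold or at low FPKM, was not tested. The members and the gene lists were chosen with earlier results of these data known. Named were genes past 2-fold, the 12 highest and 12 lowest ratios at 10 FPKM or more, the MYC network, in each list the 4 largest ratios, genes past 1.5-fold at both times and the 5 largest gaps of the Omomyc columns in each direction. Predicted genes, pseudogenes and small RNAs were left out of the naming. Some members of the lists are counted but not given by name here. Further members of the lists, the other genes past 1.5-fold, the counts past 1.5-fold without small RNAs, the fusion list, FPP-1746 as reference and a filter without the fusion columns were added after the data were seen. Gene positions come from the deposited table (mm9, starts shifted to count from 1), and promoter positions are those of RefSeq in GRCm38.p6. Alternatives varied the pseudocount, the filter, the scaling, the reference, the fold and the small RNAs.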

Additional observations from a re-analysis of the deposited data

How the results depend on the processing

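Counts of genes depended on the handling of low values and on the reference column. Among all genes, 49 were higher at 1.5-fold, and without small RNAs 4 were at least 2-fold higher and 2 lower. With a minimum of 5 FPKM, 25 of all genes were at least 2-fold lower, and 24 with FPP-1746 at 6 h as reference. Without small RNAs, the counts at least 2-fold higher and lower were 7 and 4 with a pseudocount of 0.1 FPKM, and 1 and 0 with 5 FPKM. The count at least 2-fold lower was 4 with no filter, 0 with a minimum of 5 FPKM and 9 with the mean of both PBS columns as reference. At 1.5-fold they were 49 higher and 21 lower with a pseudocount of 0.1 FPKM, and 4 and 0 with 5 FPKM. The count at least 1.5-fold lower was 11 with no filter, 1 with a minimum of 5 FPKM and 34 with both PBS columns. With FPP-1746 at 6 h as reference, the counts were 2 higher and 1 lower at 2-fold, 9 were lower at 1.5-fold, and the median of the cholesterol list was 0.0010. The cholesterol median lay between 0.26 and 0.37 under the other alternatives. The share of the 1.5-fold higher genes found on the fusion list lay between 47.8% and 64.3%. Of 234 values of 26 list medians under alternatives, 223 moved by less than 0.1. The sign turned in 32, mostly of medians near 0, and in 8 of these the move was 0.1 or more. With both PBS columns as reference these were the metal response (0.015), immediate-early genes (-0.093), the integrated stress response (-0.13) and polyamine genes (-0.16). With FPP-1746 as reference they were the mesenchymal markers (-0.00088), the TGF-beta list (-0.12), the unfolded protein response (-0.094) and the glycolysis and hypoxia list (-0.10). Of 984 values of 141 named genes, 48 turned sign, 22 with both PBS columns and 26 with FPP-1746 as reference, among them Acta2 (-0.13) and Il33 (0.32), the only ones past 1.5-fold against PBS. A filter on the 6 columns without the fusion kept all 18 higher and 5 lower genes. The mean of both PBS columns takes in PBS at 3 h, a time that Omomyc at 6 h does not share. The cause of the differences between settings was not tested. No paired analysis was possible because the columns are averages that hold no single replicates, and leaving out a replicate could not be run for the same reason. The averaging hides the spread between replicates, and the depth is known only from a rough estimate.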

Other observations

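Markers of the mesenchymal state differed little between Omomyc and PBS at 6 h. Their median log2 ratio was 0.10 over 14 tested genes, with 11 above 0, beside 0.13 for FPP-1746 against the same PBS column. Prrx1, a homeobox factor of mesenchyme, was at 33.1 FPKM in PBS, 40.1 FPKM in Omomyc and 36.5 FPKM in FPP-1746, and Cd44, the hyaluronan receptor, at 117, 134 and 117 FPKM. Twist1, a factor of epithelial-mesenchymal transition, was at 23.8, 26.7 and 25.1 FPKM, and Snai1, another, at 24.5, 22.3 and 27.0 FPKM. Tubb2a, a beta-tubulin, was among the 12 highest ratios at 10 FPKM or more, at 41.2, 60.2 and 48.2 FPKM, and close tubulin paralogs may share its reads.

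Interferon response genes had 7 tested members with a median of -0.0080. Without Stat2, which passed the filter only through the fusion columns, it was -0.014 with 2 of 6 above 0. Irf1, a transcription factor of that response, was at 17.98 FPKM in PBS, 20.1 FPKM in Omomyc and 18.9 FPKM in FPP-1746. Of the circadian and E-box list, 3 of 14 genes were past 1.2-fold upward, where 2.02% of all genes were, namely the clock repressors Per1, Per2 and Cry1. Bhlhe40 was at 19.1 and 20.2 FPKM and Arntl, their activator, at 5.51 and 4.93 FPKM. Cry1 was at 7.70 FPKM in PBS, 9.55 FPKM in Omomyc and 9.46 FPKM in FPP-1746. Its PBS column at 3 h, at 12.3 FPKM, was higher than all of these, and with the mean of both PBS columns as reference its log2 ratio turned from 0.28 to -0.06. The linker and replication-dependent histone list had 5 tested genes with a median of 0.023, and Hist1h1c was at 13.2 and 14.1 FPKM.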
